A study of Caenorhabditis elegans with 2 samples.

Results

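All 261 annotated nuclear microRNA genes of Caenorhabditis elegans were examined, among 46890 annotated nuclear genes. The members were every gene of biotype miRNA in the Ensembl annotation of WBcel235, the assembly also called ce11. For each gene the highest region with a summit within 1000 bp was taken from a list of 30000 ChIP-seq regions called on the pooled replicates, and its rank there and in each replicate's own list was read, rank 1 being the highest signal value. The annotated spans were 52 to 1732 bp long, with a median of 95 bp. Of the 261 genes, 106 (40.6%) lay inside a protein-coding gene and 155 lay outside any, here called intergenic. Among the 106, 74 were on the host's strand and 32 on the opposite strand; 97 were in introns and 9 overlapped an exon, and 90 different protein-coding genes served as hosts.

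The study was a ChIP-seq experiment on the nuclear hormone receptor NHR-77, carried as an eGFP fusion and profiled in whole worms at the L2 larval stage. There was 1 group of 2 biological replicates, both from strain OP353 with the mutation unc-119(tm4063) on III and the integrated transgene wgIs353, with males and females pooled, of unknown age beyond the stage. No library of worms without the transgene was used here, so regions were not set against a background of that kind. Because whole animals were collected, signal in a few cells and weak signal in many cannot be told apart. The deposited list of peaks past the authors' threshold on the irreproducible discovery rate held 415 entries, and these were the 415 highest regions of the pooled list; they are called thresholded peaks below. The list of replicate 1 held 23256 regions, of which 23 were mitochondrial, including 15 of its 25 highest, while replicate 2 held 30000 regions and none of that kind.

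MicroRNAs are short RNAs cut from hairpin precursors. Loaded on an Argonaute protein, they pair with messages chiefly through the seed, bases 2 to 8, and lower their translation and stability. In C. elegans, lin-4 and let-7 are the founding members of the class and time larval development, and the let-7 relatives mir-48, mir-84 and mir-241 act on the switch out of the L2 stage; the nuclear hormone receptor DAF-12, a relative of NHR-77, is known to control them.

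The mature forms of 4 well-known seed families, each with at least 1 gene by a region among the 1000 highest, are shown here because the text returns to them; they were read from the RefSeq copy of WBcel235, with the seed in capitals. Mature forms from the first autosome were not read, so counts by seed leave out its genes, mir-794 and mir-795 of the let-7 family among them. The seed GAGGUAG was found in 4 genes, each with a pooled region, and mir-241 stood highest among them.
mir-241: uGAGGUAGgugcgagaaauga
mir-48: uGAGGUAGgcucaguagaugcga
mir-84: uGAGGUAGuauguaauauuguaga
let-7: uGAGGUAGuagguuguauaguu
The mir-51 family shared the seed ACCCGUA in 6 genes, and 5 of them lay by a region among the 1000 highest.
mir-51: uACCCGUAgcuccuauccauguu
mir-52: cACCCGUAcauauguuuccgugcu
mir-53: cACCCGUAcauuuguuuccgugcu
mir-54: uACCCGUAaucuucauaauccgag
mir-55: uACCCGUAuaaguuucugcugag
mir-56: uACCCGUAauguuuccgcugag
The seed GAGAUCA, shared with the fly microRNA bantam, was found in 6 genes, of which 4 had a region. The genes mir-80, mir-81 and mir-82 of this group are shown, with their relative mir-58.1, which has the seed GAGAUCG; of the others, mir-58.2 and Y73B6A.17 shared a region of rank 8654 and mir-2209.1 had none.
mir-80: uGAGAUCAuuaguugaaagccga
mir-81: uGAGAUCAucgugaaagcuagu
mir-82: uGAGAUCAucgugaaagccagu
mir-58.1: uGAGAUCGuucaguacggcaau
The pair lin-4 and mir-237 shares the seed CCCUGAG, and only lin-4 had a region within 1000 bp.
lin-4: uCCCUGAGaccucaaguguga
mir-237: uCCCUGAGaauucucgaacagcu

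The 201 bases centred on the summits of 7 high regions at microRNA genes are shown as the plus strand of the reference, 5′ to 3′. They are a choice and not the 7 highest, since regions such as those of mir-2214 (rank 276) and mir-53 (rank 425) were left out. Capitals mark 2 patterns searched on both strands: CTCCGCCC (read as its reverse complement GGGCGGAG where it lies on the minus strand), a pattern known from upstream of nematode microRNA genes, and GAGAGAGA (or its reverse complement), a GA repeat.
mir-5549, chrIII:6972005-6972205: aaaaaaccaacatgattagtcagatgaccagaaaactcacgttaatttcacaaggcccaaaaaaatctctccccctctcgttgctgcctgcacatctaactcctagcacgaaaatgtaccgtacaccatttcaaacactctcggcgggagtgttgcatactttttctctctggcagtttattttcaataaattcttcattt
mir-241, chrV:14366752-14366952: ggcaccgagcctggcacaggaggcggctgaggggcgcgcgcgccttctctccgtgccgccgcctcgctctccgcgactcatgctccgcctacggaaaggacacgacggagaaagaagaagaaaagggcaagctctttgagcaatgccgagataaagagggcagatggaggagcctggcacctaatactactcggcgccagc
mir-80, chrIII:8865402-8865602: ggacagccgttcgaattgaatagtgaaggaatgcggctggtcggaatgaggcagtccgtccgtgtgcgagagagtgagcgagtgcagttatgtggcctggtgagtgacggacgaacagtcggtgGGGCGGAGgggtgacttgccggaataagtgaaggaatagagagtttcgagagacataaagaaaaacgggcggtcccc
mir-54 to mir-56, chrX:13145331-13145531: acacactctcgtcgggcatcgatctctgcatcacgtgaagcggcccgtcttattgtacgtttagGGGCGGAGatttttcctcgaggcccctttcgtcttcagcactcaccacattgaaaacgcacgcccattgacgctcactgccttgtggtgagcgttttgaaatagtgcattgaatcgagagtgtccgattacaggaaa
mir-52, chrIV:14033094-14033294: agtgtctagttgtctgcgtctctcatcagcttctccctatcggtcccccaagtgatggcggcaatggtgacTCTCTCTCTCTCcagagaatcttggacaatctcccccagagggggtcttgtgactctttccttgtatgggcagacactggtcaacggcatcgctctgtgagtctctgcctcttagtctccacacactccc
mir-58.1, chrIV:3232753-3232953: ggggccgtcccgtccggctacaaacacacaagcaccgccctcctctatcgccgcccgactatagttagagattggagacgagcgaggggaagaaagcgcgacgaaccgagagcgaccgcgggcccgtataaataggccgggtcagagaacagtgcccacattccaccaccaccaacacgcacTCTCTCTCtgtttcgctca
lin-4, chrII:5901726-5901926: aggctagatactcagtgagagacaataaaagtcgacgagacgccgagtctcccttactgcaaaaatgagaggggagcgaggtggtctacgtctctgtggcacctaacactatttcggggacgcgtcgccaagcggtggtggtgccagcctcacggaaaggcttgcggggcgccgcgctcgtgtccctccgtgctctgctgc
The GC content of these windows was 40.3% at mir-5549, 63.2% at mir-241, 55.7% at mir-80, 51.2% at mir-54 to mir-56, 54.2% at mir-52, 60.2% at mir-58.1 and 59.7% at lin-4. The mean was 43.7% ± 7.24 (SD over 415 windows) for the thresholded peaks and 34.8% ± 7.33 (SD over 30000 windows) for all pooled regions. Among high regions not shown, values were 43.3% at mir-2214, 48.8% at mir-53, 29.9% at mir-238 and 50.7% at the region of mir-4923.1 and mir-4921.

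A pooled region lay within 1000 bp of 142 of the 261 genes (54.4%, exact binomial 95% interval 48.2 to 60.6), and 119 genes (45.6%) had none. Measured from gene 5′ ends, the same distance found a region for 52.5% of microRNA genes and for 49.9% of all 46890 nuclear genes. The share of microRNA genes was thus near the background. A thresholded peak lay within 1000 bp of 9 genes (3.45%, interval 1.59 to 6.44), against 1.41% of all nuclear genes by their 5′ ends. Of those nuclear genes, 15363 were piRNA genes, whose low share of 0.247% lowers the value for all genes. The share of protein-coding genes, 1.99%, lay inside the interval for microRNA genes. The intervals cover counting error only and treat genes as independent, which neighbours that share a region are not.

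Those 9 genes shared 6 peaks, which were 1.45% of the 415. Over the longer list, the 142 genes shared 120 distinct regions (0.4% of the 30000), 13 of these regions belonged to more than 1 gene, and the widest served 7 genes of the mir-35 cluster. Among the other classes of gene, by 5′ ends, a thresholded peak was found for 1.99% of protein-coding genes, 4.08% of transfer RNA genes, 10.7% of small nucleolar RNA genes and 10.1% of small nuclear RNA genes. MicroRNA genes stood between protein-coding and transfer RNA genes on this measure. The piRNA genes, the class of germline small RNAs, were lower at 0.247%.

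**Figure D1:**
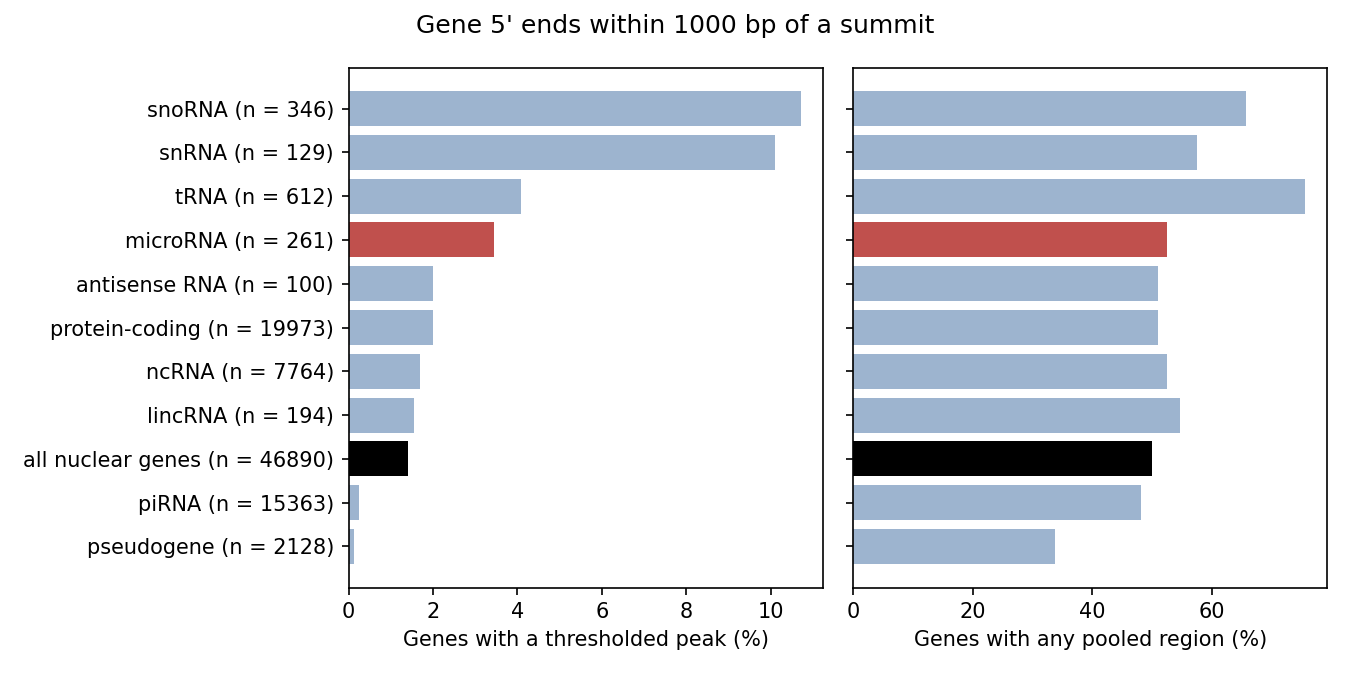
Percent of genes of each class with a thresholded peak (left) or any pooled region (right) within 1000 bp of the 5′ end, with the number of genes in brackets; microRNA genes are in red and all nuclear genes in black. MicroRNA genes reached 3.45% on the left, against 1.41% for all nuclear genes, and 52.5% against 49.9% on the right.

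The ranks of the 142 highest regions ran from 121 to 29608 with a median of 8583, and their signal values from 5.77 to 45.9 with a median of 9.73. The 10000 highest regions of the pooled list held 80 of the 142 (56.3%), the 10000 after them 30 and the lowest 10000 the remaining 32. By 5′ ends, the 10000 highest held 56.2% of the microRNA genes with a region and 42.7% of all nuclear genes with one, and the median ranks were 8654 and 12053. The classes of short structural RNA had larger shares there, 71.6% for transfer RNA, 65.6% for small nucleolar RNA and 62.2% for small nuclear RNA genes, while protein-coding genes had 44.8% and piRNA genes 37%. Median ranks were 11459 for protein-coding genes and 13660 for piRNA genes, and the many piRNA genes weigh on the values of all nuclear genes. Genes that share a region are not independent, and no test of these differences was run. The signal value is the authors' own caller score, on a scale that no header gives, so ranks carry the comparisons between lists.

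The highest region at any microRNA gene was that of mir-5549, an intergenic gene on the minus strand of III (6971976 to 6972085). Its summit lay 20 bp upstream of the gene, with rank 121 and signal value 45.9 in the pooled list. Replicate 1 placed this region at rank 155 with signal value 13.9, and replicate 2 at rank 115 with signal value 34.5, so it was high in both. The start of rfc-4, which encodes a subunit of the clamp loader of DNA replication, lay 148 bp from the same summit, and the signal at these neighbours cannot be told apart.

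The region at mir-354 had rank 176 and signal value 39.7. This gene lies on the minus strand of I (14468382 to 14468491) and overlaps an exon of rps-20, which encodes a protein of the small ribosomal subunit and is transcribed in the same direction. The summit lay 849 bp upstream of mir-354 and 160 bp from the start of ekl-4, with rank 141 in replicate 1 and 190 in replicate 2. It was also a thresholded peak at the start of rps-20. These first 2 regions, at mir-5549 and mir-354, were the only ones at microRNA genes whose overlapping regions ranked within the highest 415 of both replicates, and both had a protein-coding start within 500 bp.

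The third was the region of mir-241, on the minus strand of V (14366188 to 14366283), with rank 180 and signal value 39.5. Its summit lay 569 bp upstream of the gene, in sequence far from any protein-coding start, since the nearest, that of unc-39, was 6222 bp away. Replicate 2 placed it at rank 171 with signal value 28.9, and replicate 1 at rank 689 with signal value 8.15. The neighbour mir-48 lies on the same strand (14364412 to 14364509), and its own highest pooled region, 953 bp upstream, had rank 1525 and signal value 16.1. In replicate 1 that mir-48 region stood at rank 145 with signal value 14.2, above the region nearer to mir-241, and replicate 2 held no region overlapping it. The replicates thus placed their highest signal by these let-7 relatives at different positions.

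The replicates also differed at the other thresholded regions. That of mir-2214, in an intron of B0361.11 on III (7278715 to 7278778) and on its strand, had rank 276 and signal value 32.2, with its summit 43 bp upstream. It ranked 359 in replicate 2 and 9141 in replicate 1. That of mir-80, an intergenic gene on the minus strand of III (8865270 to 8865367), had rank 341 and signal value 29.2, with its summit 135 bp upstream of the gene and 11626 bp from the nearest protein-coding start. Here replicate 1 was the higher, at rank 321 with signal value 10.3, and replicate 2 stood at rank 1002 with signal value 14.5. mir-80 belongs to the bantam-related family, which in worms is known for roles in growth, dauer formation and the response to diet.

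The last thresholded region was shared by the cluster of mir-54, mir-55 and mir-56 and by F09A5.15, a gene annotated on the plus strand across mir-55. It spanned X 13145266 to 13145595, with rank 409 and signal value 27.3, in an intron of F09A5.3. The 3 genes of the cluster are on the minus strand, opposite to that host, and the summit lay 337 bp upstream of mir-54, 507 bp upstream of mir-55 and 644 bp upstream of mir-56, while it lay 512 bp downstream of F09A5.15. Replicate 2 placed the region at rank 411 with signal value 20.4, and replicate 1 at rank 7008 with signal value 3.98. All 4 of the microRNA genes on X that had a thresholded peak were these, so the X count of 4 of 74 genes rests on a single peak; the autosomes held 5 of 187.

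**Figure D2:**
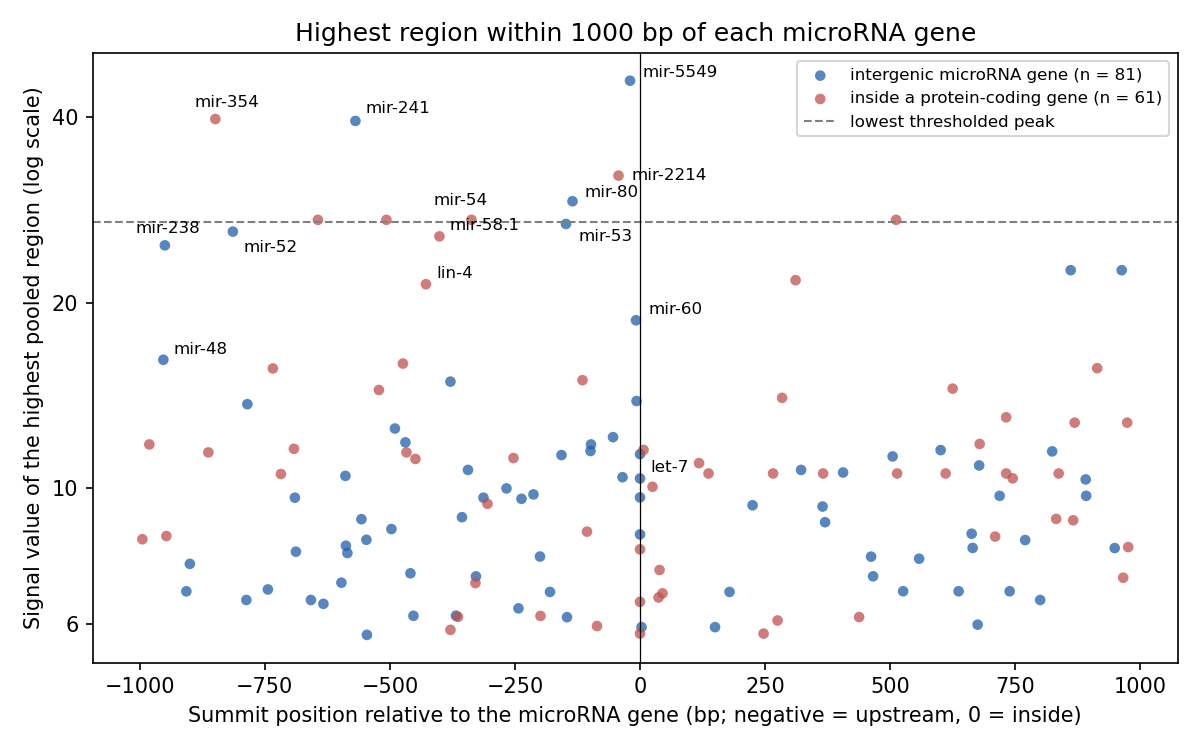
Signal value (log scale) of the highest pooled region at each of 142 microRNA genes against the position of its summit relative to the gene in bp, negative being upstream; blue points are intergenic genes, red points are genes inside a protein-coding gene, and the dashed line is the lowest thresholded peak. The highest points, at mir-5549, mir-354 and mir-241, lie 20, 849 and 569 bp upstream.

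Just below the threshold stood more members of the same families. The lowest regions inside it at microRNA genes were those of mir-80 (rank 341, signal value 29.2) and of the mir-54 to mir-56 cluster (rank 409, 27.3), and the lowest thresholded peak of all had signal value 27.1. The first outside was mir-53, at rank 425 with signal value 26.8, then mir-52 at rank 456 with 26.1, mir-58.1 at rank 474 with 25.6, mir-238 at rank 508 with 24.8 and mir-4923.1 at rank 615 with 22.6. The step from mir-56 to mir-53 was thus small beside the range of the list.

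mir-52 and mir-53, which share the seed of mir-54 to mir-56, are intergenic genes at separate places on IV. The summit by mir-52 (14034008 to 14034107, plus strand) lay 814 bp upstream, and 10586 bp from the nearest protein-coding start. The regions overlapping this pooled region ranked 80 in replicate 1 with signal value 19.2 and 526 in replicate 2 with 18.2. The rank of 80 was the highest of any microRNA gene's best region in replicate 1. The summit of that replicate 1 region lay more than 100 bp from the pooled summit. The summit by mir-53 (11027593 to 11027691, minus strand) lay 148 bp upstream, with rank 2417 in replicate 1 and 448 in replicate 2. Only replicate 2 placed the mir-53 region near its threshold rank. The family is known in C. elegans for its part in attaching the pharynx during embryonic development.

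mir-58.1, one of the most abundant worm microRNAs and a relative of mir-80, lies in an intron of phkb-1 on IV (3233254 to 3233350) and on its strand. Its summit, 401 bp upstream of the hairpin, was 3998 bp from the nearest start of that host. The region ranked 6150 in replicate 1 and 992 in replicate 2. mir-238 (III 8867328 to 8867425, minus strand), a gene known for effects on lifespan, had its summit 950 bp upstream, with rank 157 in replicate 1 and 3646 in replicate 2. The mir-58.1 region was thus higher in replicate 2 and that of mir-238 in replicate 1. Replicate 1 did hold another region within 1000 bp of mir-58.1, at rank 351 of its nuclear regions with signal value 9.81. The genes mir-80 and mir-238 lie next to each other, and the summit of the mir-80 peak was 1826 bp downstream of mir-238.

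lin-4 lies in an intron of F59G1.4 on II (5902254 to 5902347), on the strand of that host. Its region had rank 699 and signal value 21.4, with the summit 428 bp upstream of the hairpin and 1655 bp from the nearest start of F59G1.4. The replicates were close here, at rank 1272 with signal value 6.77 in replicate 1 and rank 1013 with signal value 14.4 in replicate 2. mir-60, an intergenic gene on II (6328702 to 6328799) expressed in the intestine, had its summit 8 bp upstream, with pooled rank 1002 and ranks of 505 and 851 in replicates 1 and 2. These regions lay below the threshold in every list, and the regions overlapping them had like ranks in both replicates. For mir-60 the summit of the replicate 2 region was more than 100 bp from the pooled summit.

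The remaining genes among the 20 highest have no well-known role. mir-4923.1 and mir-4921 on X shared a region of rank 615 that lay downstream of both, at rank 296 in replicate 1 and 2558 in replicate 2. Its summit was 11 bp from the transfer RNA gene Y59E1B.t2, so signal at that gene and at the microRNA genes cannot be told apart. mir-1824, in an intron of Y87G2A.18, had rank 669, with a summit 68 bp from the start of its host. mir-90, in an intron of K01F9.2, had rank 1595 and a summit 474 bp upstream. Short RNA genes of the transfer, small nucleolar or small nuclear class lay within 500 bp of 5 of the 120 distinct regions (4.17%).

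**Figure D3:**
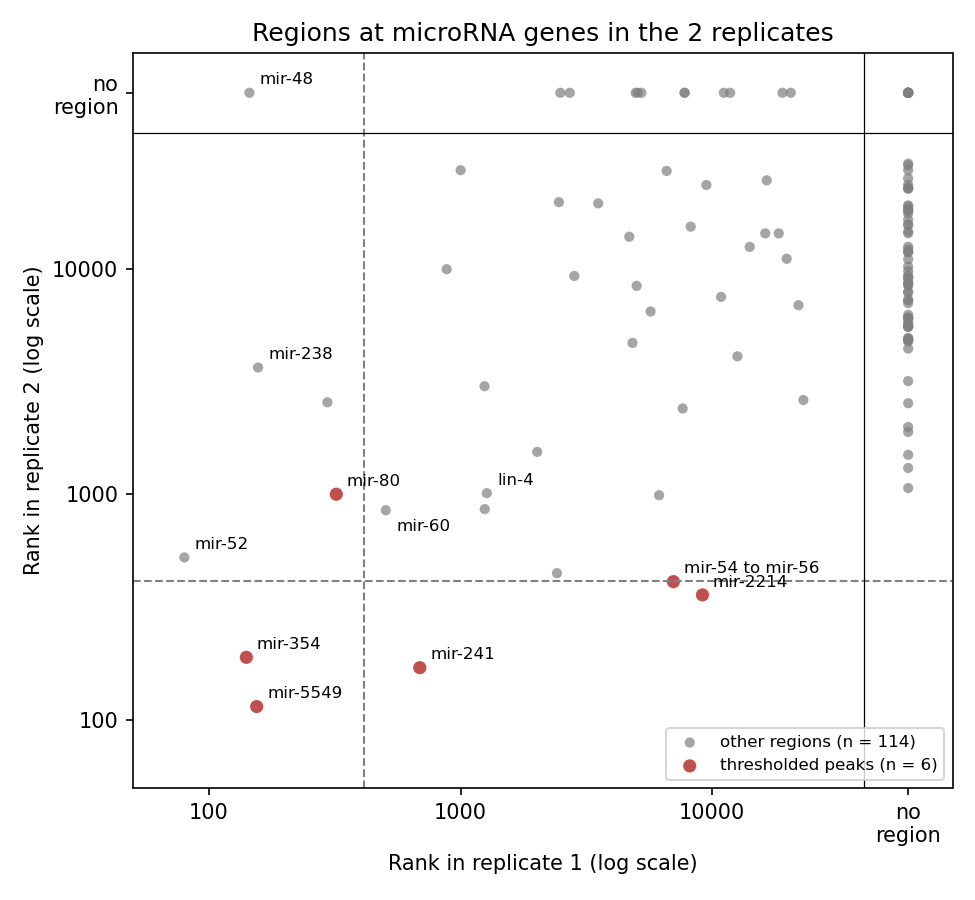
Rank of each of the 120 distinct regions at microRNA genes in replicate 1 and replicate 2 (log scales, 1 being the highest), with regions absent from a list at the upper and right edges; red points are the 6 thresholded peaks and dashed lines mark rank 415. The regions of mir-354 and mir-5549 lie inside both lines. Those of mir-241, mir-2214 and mir-54 to mir-56 lie inside the line of replicate 2 only, and that of mir-80 inside the line of replicate 1 only.

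Over all 120 distinct regions, 50 (41.7%, interval 32.7 to 51) overlapped a region of replicate 1, 99 (82.5%, interval 74.5 to 88.8) a region of replicate 2 and 38 (31.7%, interval 23.5 to 40.8) a region of both. For all pooled regions these shares were 37.1%, 70.2% and 21.9%. The interval for replicate 1 contains the share of the whole list, while those for replicate 2 and for both lie above it. The 120 were taken as the highest region near a gene, so they are not a like sample of the list. No test of these differences was run. Over the 38 regions seen in both, Spearman's rho of the signal values was 0.467, a description across regions that share their libraries. Taking each replicate's own 415 highest nuclear regions instead, 10 microRNA genes had one within 1000 bp in replicate 1 and 9 in replicate 2. The genes in both sets were mir-52, mir-354, mir-241 and mir-5549, but for mir-241 the replicates did not reach the set through the same region. The region that put mir-241 there in replicate 1 was the one upstream of mir-48. By mir-52, the replicate 1 region of rank 80 overlapped the best pooled region, but its summit lay more than 100 bp from the pooled summit. In replicate 2 the region overlapping that pooled region had rank 526, and another region had signal value 24.5. Whether that other region and the replicate 1 region were the same site was not examined.

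Genes inside hosts and intergenic genes gave overlapping values. A pooled region was present for 61 of 106 genes in hosts (57.5%, interval 47.6 to 67.1) and for 81 of 155 intergenic genes (52.3%, interval 44.1 to 60.3). Their median ranks were 6579 and 9793. A thresholded peak was present for 6 in hosts (5.66%, interval 2.11 to 11.9) and 3 intergenic genes (1.94%, interval 0.401 to 5.55), but 4 of the 6 shared the peak by mir-54, so both classes had 3 distinct peaks. The order was turned when replicate 1 was used alone, with 2 genes in hosts and 8 intergenic. Counting only hosts on the same strand gave 3 and 6 genes, but moved the 32 genes on the opposite strand to the intergenic class. Those counts thus do not show a change in the order of the shares, the 3 being 4.05% of 74 genes. The rank 6579 is that of the region shared by 7 genes of the mir-35 cluster, which lie at the middle of the host class.

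The genes in hosts were also counted by strand and by feature. On the host's strand 43 of 74 genes had a region and 3 (4.05%) a thresholded peak, and on the opposite strand 18 of 32 and 3 (9.38%), the latter being mir-54, mir-55 and mir-56. In introns the counts were 56 of 97 with a region and 5 with a peak, and over exons 5 of 9 and 1.

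Starts of the host genes were examined apart from the microRNA genes they carry. Of the 90 hosts, 41 (45.6%) had a pooled region within 500 bp of a start and 4 (4.44%) a thresholded peak, against 37.4% and 1.65% of 19973 protein-coding genes. The 4 were nurf-1 (rank 94), a chromatin remodelling subunit that holds mir-5595, gmps-1 (rank 146), an enzyme of GMP synthesis that holds mir-2216, rps-20 (rank 176) with mir-354, and symk-1 (rank 400), the worm symplekin of messenger RNA 3′ end processing, which holds mir-357 and mir-358. Of these, only the rps-20 peak was within 1000 bp of the microRNA gene inside. A gene was counted if any of its annotated starts had a region, so genes with more starts had more chances. Numbers of starts were not compared between hosts and other genes, and the difference in shares was not tested.

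The highest regions lay mostly on the upstream side of the microRNA genes. Over all 142 genes, the summit was upstream of 75 (52.8%), inside 7 and downstream of 60 (42.3%). Among the 20 genes with the highest regions it was upstream of 16 (80%) and downstream of 4. These 20 genes shared 16 distinct regions. Of the 17 genes with a region among the 1000 highest, 13 (76.5%) had it upstream, while of the 63 genes with regions below these but within the 10000 highest, 31 (49.2%) did. The high share was thus found at the head of the list, and it was lower when either replicate was used alone, 60% in replicate 1 and 65% in replicate 2.

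A protein-coding start lay within 500 bp of 31 of the 120 distinct regions (25.8%), which is near the 27.2% of all pooled regions. Of the 6 thresholded peaks at microRNA genes, 2 (33.3%, interval 4.33 to 77.7) had such a start, and of all 415 peaks 253 (61.0%) did, a share inside that interval. Among the 13 distinct regions within the 1000 highest, 3 had such a start, namely those of mir-5549, mir-354 and mir-1824. The others, which include the regions by the let-7, mir-51, bantam-related and lin-4 families, had none.

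The patterns searched in the windows were rare. CTCCGCCC stood in 0.96% of all 30000 windows, in 2.89% of the thresholded peaks and in 2 of the 120 member windows (1.67%), both among the 13 highest: the mir-80 peak, 159 bp from the gene, and the peak of mir-54 to mir-56, at 301 bp from mir-54. In both it lay on the strand of those genes. GAGAGAGA stood in 2.49% of all windows, 8.92% of the thresholded peaks and 10 of the 120 member windows (8.33%), among them those of mir-52 and mir-58.1 shown above. AGGTCA, the core recognised by many nuclear receptors, stood in 4.89% of all windows, 4.10% of the thresholded peaks and 6 of the 120 member windows (5%). None of the 13 highest member windows held AGGTCA, which says only that these letters are not in those windows.

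Family by family, regions were found at every listed member in some families and at only part of the members in others. None of the 3 listed genes of the mir-72 family had one. In the let-7 family 5 of 7 genes had a region. let-7 itself, on X, had rank 7032 with the summit inside its annotated span of 1732 bp, absent from replicate 1 and at rank 6025 in replicate 2. mir-84, also on X, had rank 6902 with the summit 35 bp upstream, absent from replicate 1 and at rank 1067 in replicate 2. mir-795 had rank 13099, and mir-793 and mir-794 had no region. In the lin-4 family, mir-237 had none.

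All 6 genes of the mir-51 family had a region, over 4 distinct places, and mir-51 was the lowest at rank 17402, with ranks of 9474 and 23435 in replicates 1 and 2. In the mir-58 family mir-82, in an intron of gid-2, had rank 4828, while mir-81, in the same gene on the other strand, had none. All 8 genes of the mir-35 family, which is needed for embryonic development, had a region, but only 2 distinct ones. mir-35 to mir-41 shared that of rank 6579, downstream of them and 300 bp from the start of Y62F5A.9, and mir-42 had rank 21870. The mir-35 cluster thus had weak signal, at rank 19749 in replicate 1 and 11047 in replicate 2.

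The mir-64 family, mostly in an intron of gcn-1, had regions at all 5 genes, with ranks from 3416 (mir-65 and mir-66) to 5059 (mir-64 and mir-229); mir-63, the member outside gcn-1, had rank 4571. In the mir-238 family, mir-239.1 had rank 4920 and mir-239.2 rank 15534. In the mir-75 family, mir-79 had rank 4971 and mir-75 rank 14643. The mir-44 family had regions at 2 of 4 genes, mir-61 at rank 11212 and mir-44 at 21870, and the mir-2 family at 2 of 3, mir-250 at 7127 and mir-43 at 21870. mir-45, mir-247 and mir-2 had none, nor had the 3 listed genes of the mir-72 family. Their seed GGCAAGA was found in 5 genes, and 1 of these, mir-266, had a region, at rank 5962. The region of rank 21870, shared by mir-42, mir-43 and mir-44, had its summit inside the small nucleolar RNA gene ZK930.15. That of mir-239.2 had its summit 28 bp from another such gene, C34E11.20. Signal at these genes and at the microRNA genes cannot be told apart.

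**Figure D4:**
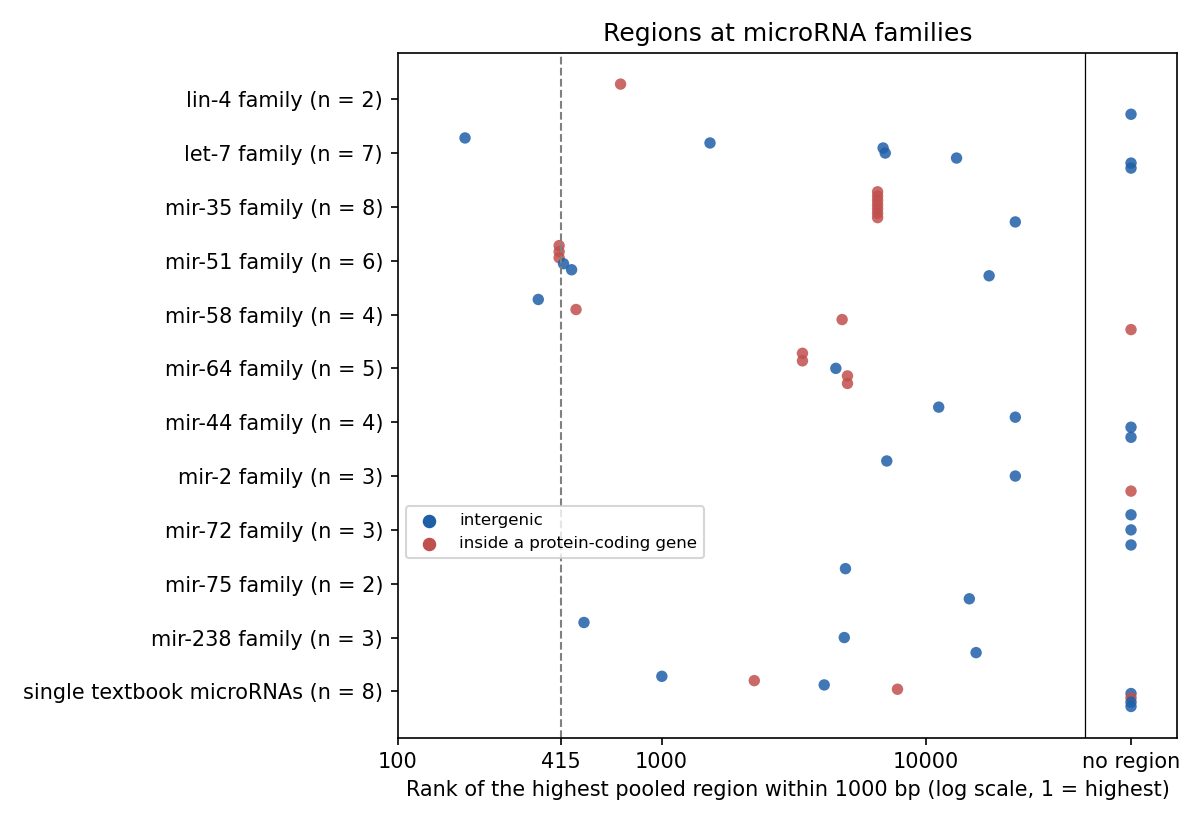
Pooled rank (log scale, 1 being the highest) of the highest region within 1000 bp of each gene of 11 families and of 8 single microRNAs, with genes lacking a region at the right; blue is intergenic, red is inside a protein-coding gene, and the dashed line marks rank 415. Members of the let-7, mir-51 and bantam-related (mir-58) families lie left of the line, and the 3 listed genes of the mir-72 family lie at the right.

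Of 8 single microRNAs with textbook roles, 4 had a region. Apart from mir-60, these were mir-62, a microRNA spliced out as an intron of ugt-50, at rank 2244 and 222 bp from a start of that gene; mir-1, the muscle microRNA, at rank 4130 with the summit 54 bp upstream; and mir-71, which acts on lifespan and stress responses, at rank 7825. lsy-6, which sets the left-right asymmetry of a pair of taste neurons, mir-124 of sensory neurons, mir-34 of the stress response and mir-57 of posterior patterning had none. None of the 8 had a thresholded peak within 1000 bp.

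Some thresholded peaks lay a little farther out. The share of all nuclear genes was not counted at 2000 bp, so the count there has no background beside it. Between 1000 and 2000 bp, 7 more genes were reached: mir-238, already described; mir-71, with a peak of rank 134 at 1418 bp upstream; mir-2221, with rank 50 at 1239 bp upstream; mir-2216, with rank 146 at 1801 bp upstream; mir-2212 and mir-1819, which shared rank 118 at 1854 and 1980 bp upstream; and mir-259, with rank 219 at 1991 bp downstream. The peak by mir-2216 is that at the start of its host gmps-1. The value at mir-2221, rank 50, exceeded every value within 1000 bp of a microRNA gene.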

How the data were processed

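ChIP-seq region lists of 2 biological replicates were used, all on ce11, with positions counted from 1. Per the authors' text files, relaxed lists were made per replicate and on the pooled replicates, and the thresholded list was derived from them by irreproducible discovery rate. Which aligner and caller made them is not given in the sources used here. The deposited signal value is a score of the authors' peak caller, of unstated scale, and the deposited q-value column is a −log10 q-value, which was used only to check the files (2.20 to 2.88 over the thresholded peaks). Reads per library are unknown from the files, so the depth behind each value is unknown. The ce10 lists were not used.

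Genes came from Ensembl release 115, with symbols from RefSeq by gene ID for all 261 members. Distances were from the gene span to the summit. Entries were sorted by signal value, and a pooled region was seen in a replicate where a region overlapped it by at least 1 bp. Intervals are exact binomial (Clopper-Pearson, 95%, scipy 1.17.1), and Python 3.11.15, pandas 2.3.3 and numpy 2.4.6 were used. There was 1 group, so no test was run. The counting was tested on simulated lists. Mature forms and windows of 201 bases were read from RefSeq's WBcel235, leaving out chromosome I for printing and for seeds (399 arms, 41 seeds shared by more than 1 gene).

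Named genes were those with a thresholded peak, the 20 with the highest regions, the 5 on each side of the threshold, and listed textbook families. The members, these lists and the rule were chosen with earlier results of these data known, and the host start counts, the split by rank and the search for patterns were described after the values were seen. Alternatives changed the distance, the anchor, the list length, the host definition and the replicates used.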

Additional observations from a re-analysis of the deposited data

How the results depend on the processing

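The distance, the use of overlap and the list length all moved the counts. Shares of all nuclear genes were not counted at the other distances, by overlap, or for the upper 208 peaks and the 1000 highest regions. At 200 bp, 45 genes had a pooled region (19 in hosts, 26 intergenic) and 3 a thresholded peak, over 3 peaks and with 1 in a host, 1 gene was high in both replicates, and the median rank was 12758. At 500 bp, 51 intergenic genes had a region, 4 genes a peak (2 in hosts), 1 was high in both replicates, and the median was 11580. At 2000 bp, 16 genes (8 intergenic) had a peak, over 11 peaks, 5 were high in both, and the median was 6579. With regions that overlap the gene, 41 had a region (18 in hosts, 23 intergenic) and 3 a peak, over 3 peaks, 1 in a host, and 1 was high in both. The upper 208 peaks left 3 genes, 3 peaks and 1 host gene, and the 1000 highest regions gave 17 genes, 13 regions, 8 intergenic genes and 5 high in both. The 10000 highest regions gave 80 genes, 39 in hosts and 41 intergenic. Counting hosts on the same strand only, 3 genes in hosts and 6 intergenic genes had a peak.

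With each replicate alone, the genes with a region were 113 to 148, those with a peak 9 to 10 over 6 to 8 regions, those in hosts 2 to 6, the intergenic ones 3 to 8, with any region 50 to 65 in hosts and 63 to 83 intergenic, and the median rank was 9199 to 9756. The share upstream among the 20 highest was 90% at 500 bp, 85% at 2000 bp and 60% to 65% in single replicates. These upstream alternatives, and the use of the hairpin in place of the gene span, which changed no count, were chosen after the data were seen. Of 109 alternative values, 64 were within 1.5 times the count, or within the spread between replicates, and 45 were not. The causes were not tested. No paired analysis was possible because there is 1 group. With 2 replicates, unknown depth and no library without the transgene used here, neither the absence of a region nor the source of weak signal can be read from these lists.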

Other observations

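A run of 9 letters, GGCACCTAA, was read in the windows of both mir-241 (rank 180) and lin-4 (rank 699), genes that time larval development. It was searched on both strands only after the windows had been seen. It stood in 13 of the 30000 pooled windows (0.0433%), in 1 of the 415 thresholded peaks and in 2 of the 120 windows at microRNA genes. Those 2 were the windows of mir-241 and lin-4 that the letters were read from, and the 1 peak was that of mir-241. These counts were thus fixed in advance, and no other window at a microRNA gene held the letters. Both windows were also rich in GC, at 63.2% and 59.7%, against 37.5% ± 9.31 (SD) over the 120. No test was made of this match, and no factor is named from it.

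The genes were also split by the number in their names, those below 400 including lin-4, let-7 and lsy-6, which are not numbered in the mir series. A pooled region was present for 71 of 117 (60.7%), against 71 of the other 144 (49.3%). A region among the 1000 highest was present for 11 (9.40%) against 6 (4.17%), and the median ranks were 6579 and 11579. A thresholded peak was present for 6 (5.13%) against 3 (2.08%). The split at 400 was chosen after the values were seen, genes of a cluster share regions, and the difference was not tested.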
